A study of Mus musculus with 23 samples.

Results

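The 10 genes that mark the microglia gathered around amyloid plaques were followed through hippocampal CD11b+ cells of 4 groups of mice. The genes were *Itgax*, *Cst7*, *Clec7a*, *Lpl*, *Spp1*, *Gpnmb*, *Igf1*, *Axl*, *Cd9* and *Ch25h*, the core genes of disease-associated microglia (DAM). They were taken by symbol from the count table, not by their values, and are 10 of its 18876 genes. All 10 passed the filter on low counts, as did 18759 genes in all. They were chosen as classic DAM genes after earlier results of these data were known, so their direction in APP/PS1 mice is no independent evidence.

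Bulk RNA-seq was made from cells pulled out of both hippocampi of female mice with magnetic beads against CD11b, a surface integrin of microglia that border macrophages, monocytes and neutrophils also carry. Every mouse was homozygous for a floxed *Slc11a2* allele (*Slc11a2* fl/fl; *Slc11a2* encodes the iron importer DMT1), carried 1 copy of *Cx3cr1* Cre-ERT2, and had a mixed 129S;C57BL/6J background. The Cre is made from the *Cx3cr1* promoter, which microglia share with other macrophages, and it acts only after tamoxifen. APP/PS1 mice were hemizygous for the APPswe and PSEN1dE9 transgenes, driven by the mouse prion protein promoter, and WT littermates had none. Knockdown (Slc11a2KD) mice were given tamoxifen at 4 mg per day for 5 days by gavage at 5 to 6 months of age. Control mice had 200 µL of corn oil in its place, and all mice were euthanized at 15 to 18 months. Tamoxifen and knockdown therefore cannot be told apart. The groups used were Control WT (n = 6), Slc11a2KD WT (n = 5), Control APP/PS1 (n = 6 of 7 deposited) and Slc11a2KD APP/PS1 (n = 5), with 1 library from each sample. Control APP/PS1 0010 was left out, because the study excluded 1 sample and 0010 is the one absent from its heat map.

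DAM are a state that microglia enter near plaques. They leave the resting program of surveillance genes such as *P2ry12* and *Tmem119* and, with signals through the lipid receptor TREM2, turn on genes for phagocytosis, lysosomes and lipid handling. The 10 genes cover different parts of that program. *Itgax* (the integrin CD11c), *Clec7a* (the fungal glucan receptor dectin-1), *Axl* (a receptor tyrosine kinase for dying cells) and *Cd9* (a tetraspanin) encode surface proteins. *Spp1* (osteopontin) and *Igf1* (insulin-like growth factor 1) encode secreted ligands, and *Cst7* (cystatin F) encodes an inhibitor of lysosomal cathepsins. *Lpl* (lipoprotein lipase) and *Ch25h* (cholesterol 25-hydroxylase) encode lipid enzymes, and *Gpnmb* encodes a glycoprotein of lysosomes and melanosomes.

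The genes lie on 7 chromosomes, with *Clec7a*, *Gpnmb* and *Cd9* on chromosome 6 and *Itgax* and *Axl* on chromosome 7, and none of them are neighbours. In GRCm39 with the GENCODE M39 annotation, *Itgax* is at chr7:127728668-127749829 (+), *Axl* at chr7:25456535-25488329 (-), *Clec7a* at chr6:129438554-129449742 (-), *Cd9* at chr6:125437210-125471778 (-) and *Gpnmb* at chr6:49013426-49047863 (+). *Spp1* is at chr5:104582165-104589235 (+), *Igf1* at chr10:87693642-87772904 (+), *Cst7* at chr2:150412284-150420864 (+), *Lpl* at chr8:69284603-69360100 (+) and *Ch25h* at chr19:34451178-34452564 (-). All are protein coding, and their exons add up to between 1387 bp (*Cst7* and *Ch25h*) and 12225 bp (*Lpl*).

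Because the 10 genes moved together between genotypes, their promoters were searched for the letters of motifs of myeloid and lysosomal factors. RefSeq promoter windows on GRCm38.p6 (250 bases before to 50 after the start) were at hand for 9 of the 10 genes, all but *Lpl*, in 11 entries. The AP-1 letters TGANTCA stood in 4 of the 9 genes and in 7.81% of 32851 promoters, with both strands searched for each motif. The PU.1 letters GAGGAAG, which read CTTCCTC when they lie on the opposite strand, stood in 3 genes and in 13.6% of promoters, and the E-box CACGTG of the MITF and TFEB family in 0 genes and in 7.15% of promoters. A match is a description of the letters and not a binding site. The 7 matches follow with 10 bases on either side, 5′ to 3′ on the strand of the gene, in lower case with the motif in capitals.
AP-1 in *Itgax*, 56 bases before the start, chr7:128129484-128129510 (+): ccacctcctcTGAGTCAcgctgacaac
AP-1 in *Cst7*, 6 bases before the start, chr2:150570399-150570425 (+): ctggttaaaaTGATTCAgcaagaaacc
AP-1 in *Igf1*, 37 bases before the start, chr10:87861064-87861090 (+): agctggaactTGAATCActattctgga
AP-1 in *Gpnmb*, at base 9 after the start, chr6:49036516-49036542 (+): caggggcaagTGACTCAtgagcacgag
PU.1 in *Igf1*, 60 bases before the start, chr10:87861041-87861067 (+): gacgatggggGAGGAAGggaaggagct
PU.1 in *Spp1*, 113 bases before the start, chr5:104434988-104435014 (+): aaaaccagagGAGGAAGtgtaggagca
PU.1 in *Axl*, 131 bases before the start, chr7:25788848-25788874 (-): ccaaggtctcCTTCCTCctccccagcc

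Libraries held between 31128643 and 54872491 counts (median 41460280). The cells carried the microglial markers fixed for the check (10 of 10 detected), with a summed level of 29540 to 43360 CPM (counts scaled to a common library total) in every library. *Prnp*, whose promoter drives the transgenes, was at 14.1 to 25.0 CPM in APP/PS1 and 1.74 to 12.3 CPM in WT samples. The gene total of *Slc11a2* was 35.1 ± 5.13 CPM in Control WT and 34.2 ± 4.76 CPM in Slc11a2KD WT, a difference smaller than either SD, and was higher in Slc11a2KD APP/PS1, at 56.5 ± 13.5 CPM against 43.2 ± 3.93 CPM for the Control samples of that genotype (SD), and the deleted exons were not counted apart. Libraries 1 to 4 and 18 to 23 are all knockdown and 5 to 17 all Control, so the order of the libraries and the knockdown cannot be told apart. Control WT 0014 stood apart from the other WT samples in these genes, at 7.12 CPM of *Prnp*, and the log2 differences, interactions, correlations and Control WT ranks that moved most without it are given both ways. In bulk RNA, fewer cells of a type and less RNA per cell cannot be told apart.

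Between Control APP/PS1 and Control WT, the comparison of the genotypes without tamoxifen, 9 of the 10 genes rose and none fell, where 5.99% of all 18759 genes rose and 4.48% fell. The rise was largest for *Gpnmb* and smallest for *Cd9*. The median log2 fold change of the 10 genes was 3.46, against -0.02 over all genes tested. For 9 genes the lowest Control APP/PS1 sample exceeded the highest sample of Control WT, which held for 5.33% of all genes, and for each of the 9 the exact permutation test gave p = 0.00216, the smallest that 6 against 6 samples allow. Values are CPM, and tests are two-sided with edgeR's quasi-likelihood test, with p-values adjusted over all genes by the Benjamini-Hochberg method.

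**Figure D1:**
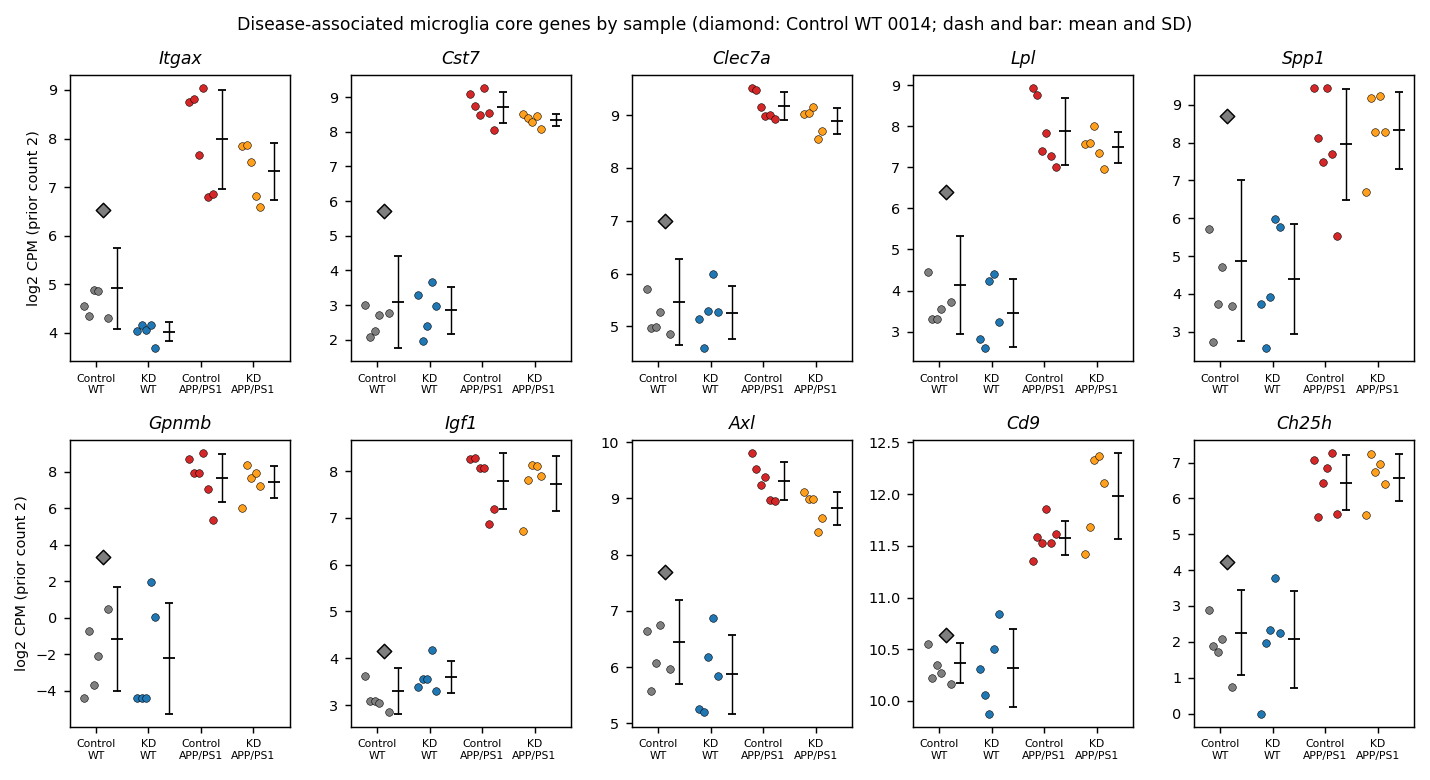
Level of each of the 10 genes in every sample by group, as log2 CPM with a prior count of 2 (points are samples, the diamond is Control WT 0014, dashes and bars are mean and SD). The APP/PS1 samples lie above the WT samples in all genes but *Spp1*, where Control WT 0014 reaches 415 CPM.

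Among the surface proteins, *Itgax* ranged from 19.7 to 92.9 CPM in Control WT (median 26.3) and from 111 to 530 CPM in Control APP/PS1 (median 316). The lowest Control APP/PS1 sample was close to the highest Control WT sample, 0014, but the groups did not overlap. The log2 fold change was 3.10 (SE 0.42, edgeR adjusted p = 1.76e-05). *Clec7a* rose from a median of 35.1 CPM (28.8 to 127) to 539 CPM (486 to 734), a log2 fold change of 3.50 (SE 0.32, edgeR adjusted p = 4.79e-08). Its levels in the Control APP/PS1 samples lay within a factor of 1.51 of each other.

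*Axl*, which binds the bridging ligand *Gas6*, was at 47.8 to 206 CPM in Control WT (median 83.7) and at 493.1 to 897 CPM in Control APP/PS1 (median 632). It rose by 2.72 on the log2 scale (SE 0.32, edgeR adjusted p = 1.6e-06). *Cd9* was high in both groups, at 1145 to 1596 CPM (median 1271) in Control WT and 2604 to 3713 CPM (median 3024) in Control APP/PS1. Its log2 fold change of 1.21 (SE 0.16, edgeR adjusted p = 1.54e-05) was the smallest of the 10.

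Of the secreted ligands, *Igf1* had the smallest p-value of the 10 genes and ranked 5 among all genes tested. It was between 7.21 and 17.9 CPM in Control WT (median 8.44) and between 117 and 309.7 CPM in Control APP/PS1 (median 268). The log2 fold change was 4.50 (SE 0.30, edgeR adjusted p = 8.08e-10). *Spp1* was the exception among the 10 genes. It ranged from 6.51 to 415 CPM in Control WT (median 19.7) and from 45.8 to 702 CPM in Control APP/PS1 (median 243), and the groups overlapped. The log2 fold change of 2.00 (SE 0.85, 95% interval 0.24 to 3.76) did not pass the test (edgeR adjusted p = 0.143), and the exact permutation test of *Spp1* gave p = 0.0238.

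*Cst7*, the cathepsin inhibitor, was between 4.18 and 52.8 CPM in Control WT (median 6.66) and between 267 and 620.4 CPM in Control APP/PS1 (median 400.9). With a log2 fold change of 4.96 (SE 0.54, edgeR adjusted p = 8e-07), it had the second largest rise. *Gpnmb* went from the edge of detection to a high level. In Control WT it had 0 counts in 0006, 1 in 0009, 8 in 0012, 18 in 0008, 46 in 0015 and 455 in 0014, a range of 0 to 10.1 CPM. In Control APP/PS1 it ranged from 40.8 to 527 CPM (median 244), with at least 1683 counts in each sample. The fitted log2 fold change of 7.01 (SE 1.19, edgeR adjusted p = 0.00024) had the largest error of the 10, and the WT level behind it rests on few counts.

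The lipid enzymes rose as well. *Lpl* was at 9.91 to 84.8 CPM in Control WT (median 12.4) and at 129 to 491 CPM in Control APP/PS1 (median 198), with a log2 fold change of 3.41 (SE 0.52, edgeR adjusted p = 7.35e-05). *Ch25h*, which makes the oxysterol 25-hydroxycholesterol, was at 1.63 to 18.5 CPM (median 3.91) and 44.4 to 154 CPM (median 100.2), with a log2 fold change of 3.91 (SE 0.57, edgeR adjusted p = 3.63e-05). For both enzymes the groups did not overlap.

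Within the knockdown groups, Slc11a2KD APP/PS1 against Slc11a2KD WT, all 10 genes rose, where 9.77% of all genes rose and 6.41% fell. The median log2 fold change of the 10 genes was 3.77, against -0.07 over all genes. Every Slc11a2KD APP/PS1 sample was above every Slc11a2KD WT sample for each of the 10 genes, which held for 4.18% of all genes, and each exact permutation test gave p = 0.00794, the smallest that 5 against 5 samples allow.

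*Itgax* was at 16.3, 17.9, 16.7, 17.9 and 12.8 CPM in Slc11a2KD WT (0001, 0002, 0003, 0019 and 0022, an order kept below) and at 229, 233, 184, 113 and 95.9 CPM in Slc11a2KD APP/PS1 (0004, 0018, 0020, 0021 and 0023, likewise). The Slc11a2KD WT samples were close together, and the log2 fold change was 3.39 (SE 0.47, edgeR adjusted p = 2.74e-05). *Clec7a* was at 35.4, 24.0, 38.9, 63.8 and 38.8 CPM in Slc11a2KD WT and at 516, 523, 567.6, 374 and 417 CPM in Slc11a2KD APP/PS1. Its log2 fold change was 3.58 (SE 0.35, edgeR adjusted p = 2.67e-07), with 0019 the highest WT and 0021 the lowest APP/PS1 sample. *Axl* was at 38.0, 36.9, 72.5, 117 and 57.5 CPM and at 551, 506, 505, 339 and 400.3 CPM, a log2 fold change of 2.84 (SE 0.35, edgeR adjusted p = 4.92e-06). *Cd9* was at 1270, 1071, 942, 1446 and 1837 CPM and at 2731, 3284, 5135, 5311 and 4432 CPM, a log2 fold change of 1.67 (SE 0.18, edgeR adjusted p = 1.05e-06). For *Cd9*, 0022 was the highest WT sample and 0004 the lowest APP/PS1 sample.

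*Igf1* was at 10.5, 11.8, 11.8, 17.9 and 9.75 CPM in Slc11a2KD WT and at 106, 224, 281, 276 and 236 CPM in Slc11a2KD APP/PS1. Its log2 fold change was 4.19 (SE 0.33, edgeR adjusted p = 1.49e-08), with 0004 below the other 4 APP/PS1 samples. *Spp1* was at 13.1, 5.86, 15.0, 62.5 and 54.8 CPM and at 104, 577, 309, 598 and 311 CPM. It rose by 3.65 on the log2 scale (SE 1.00, edgeR adjusted p = 0.0141), but 0004 was again low, and the 2 WT samples of libraries 18 to 23 were above the other 3. With libraries 1 to 4 left out, *Spp1* did not pass the test (log2 fold change 2.90, edgeR adjusted p = 0.27), nor did it with the contrast of short and long genes described below as a covariate (2.75, edgeR adjusted p = 0.1). In both parts of the library order *Spp1* was higher in APP/PS1, by 3.31 (1 against 3 samples) and 2.87 (4 against 2 samples) on the log2 scale. The direction follows from the lack of overlap between the groups, so only the sizes add to it.

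*Cst7* was at 9.71, 3.85, 5.27, 12.6 and 7.75 CPM in Slc11a2KD WT and at 366, 336, 315, 350 and 269 CPM in Slc11a2KD APP/PS1. The log2 fold change was 5.38 (SE 0.61, edgeR adjusted p = 1.74e-06), and the 5 APP/PS1 samples lay within a factor of 1.361 of each other. *Gpnmb* had 0 counts in 0001, 0002 and 0003, 157 counts in 0019 and 41 in 0022 (3.83 and 0.9748 CPM). In Slc11a2KD APP/PS1 it was at 65.8, 335, 204, 241 and 152 CPM, a fitted log2 fold change of 7.69 (SE 1.357, edgeR adjusted p = 0.000427) that again rests on few WT counts. Without 0019 it was 9.64 (edgeR adjusted p = 0.000199).

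*Lpl* was at 6.98, 6.00, 18.7, 21.1 and 9.39 CPM in Slc11a2KD WT and at 189, 193, 255, 162 and 125 CPM in Slc11a2KD APP/PS1, a log2 fold change of 3.89 (SE 0.59, edgeR adjusted p = 7.3e-05). *Ch25h* was at 0.952, 3.85, 5.01, 13.6 and 4.71 CPM and at 46.7, 149.8, 107, 124 and 84.9 CPM, a log2 fold change of 4.19 (SE 0.63, edgeR adjusted p = 6.97e-05). In both lipid enzymes 0019 was the highest WT sample. Within libraries 1 to 4 (1 APP/PS1 against 3 WT samples) and within libraries 18 to 23 (4 against 2), APP/PS1 was above WT for each of the 10 genes. This follows from the lack of overlap between the groups, so it is no separate check on the library order.

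**Figure D2:**
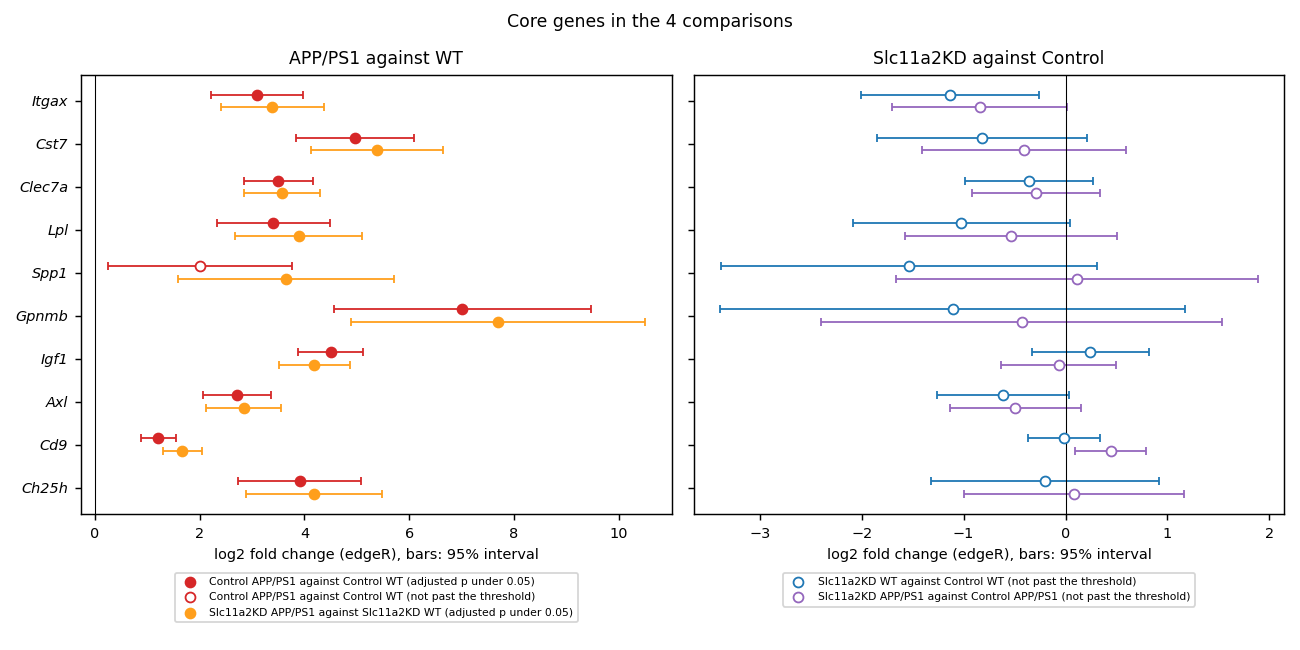
Log2 fold change of each of the 10 genes in 4 comparisons (points, edgeR), with 95% intervals as bars and a line at 0. In both comparisons of APP/PS1 with WT the points lie between 1.21 and 7.69, and in the comparisons of Slc11a2KD with Control they lie around 0, between -1.54 and 0.44.

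The knockdown comparison in WT mice asks whether tamoxifen with the floxed allele moves these genes in the absence of plaques. Between Slc11a2KD WT and Control WT, 0 of the 10 genes passed the test (edgeR), where 0% of all genes did. DESeq2 (10 of all genes called) and limma voom (1 of all genes) called 0 of the 10 as well. At an unadjusted p under 0.05, edgeR had 1 of the 10 genes, *Itgax*, against 1110 of all genes (5.92%). *Itgax* had a mean of 16.3 ± 2.08 CPM in Slc11a2KD WT and 35.8 ± 28.3 CPM in Control WT (SD), and all 5 Slc11a2KD WT samples were below all 6 Control WT samples, which held for 10 of all genes (0.0533%). The log2 difference of -1.14 (SE 0.42, 95% interval -2.01 to -0.26) had an unadjusted p of 0.0132 and an adjusted p of 0.715 by edgeR, and the exact permutation test of *Itgax* gave p = 0.0108. Without Control WT 0014 the log2 difference of *Itgax* was -0.58.

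The other 9 genes overlapped between the WT groups. Their log2 differences ran from -1.54 for *Spp1* to 0.24 for *Igf1*, and 9 of the 10 genes, all but *Igf1*, were below 0 (47.5% of all genes were). This direction rested on 0014. Without it the differences were above 0 for 7 genes, with *Cst7* at 0.38, *Clec7a* at 0.14, *Spp1* at 0.44, *Gpnmb* at 1.25, *Igf1* at 0.47, *Cd9* at 0.04 and *Ch25h* at 0.49, while *Itgax*, *Lpl* (-0.10) and *Axl* (-0.26) stayed below 0. The intervals leave room for differences of either sign, as for *Cd9* (-0.37 to 0.33) and *Ch25h* (-1.32 to 0.92).

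In APP/PS1 mice the comparison of Slc11a2KD with Control asks whether the knockdown moved the plaque-associated genes. By edgeR, 0 of the 10 genes passed the test, where 0% of all genes did. DESeq2 called 449 of all genes higher and 131 lower (3.09%) and limma voom 0 higher and 2 lower, and both called 0 of the 10. At an unadjusted p under 0.05, edgeR had 1 of the 10 genes, *Cd9*, against 3862 of all genes (20.6%). The log2 differences ran from -0.84 (*Itgax*) to 0.44 (*Cd9*), and 7 of the 10 genes were below 0, as were 49.0% of all genes. The groups overlapped for every one of the 10 genes.

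*Itgax* had the lowest value of these differences. Its mean was 171 ± 64.0 CPM in Slc11a2KD APP/PS1 and 307 ± 185 CPM in Control APP/PS1 (SD), a log2 difference of -0.84 (SE 0.42, 95% interval -1.70 to 0.02, edgeR adjusted p = 0.251). The Control APP/PS1 samples fell into 3 above 400 CPM (0005, 0007 and 0013, at 430, 452 and 530 CPM) and 3 between 111 and 202 CPM, while the Slc11a2KD APP/PS1 samples ran from 95.9 to 233 CPM. *Axl* was at 460.3 ± 87.8 CPM in Slc11a2KD APP/PS1 and 648 ± 153 CPM in Control APP/PS1. Its log2 difference was -0.49 (SE 0.31, edgeR adjusted p = 0.372), and the exact permutation test of *Axl* gave p = 0.039, unadjusted and 1 of 40 such tests over the 10 genes and 4 comparisons.

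In the edgeR fit *Cd9* was the one core gene with a log2 difference above 0.2 between Slc11a2KD APP/PS1 and Control APP/PS1. It stood at 4178 ± 1136 CPM there and at 3074 ± 363 CPM in Control APP/PS1, a log2 difference of 0.44 (SE 0.17, 95% interval 0.09 to 0.79, unadjusted p = 0.0154 and adjusted p = 0.205 by edgeR), with an exact permutation p of 0.0693. Leaving out Slc11a2KD APP/PS1 0004 brought *Cd9* past the test (0.56, SE 0.16, edgeR adjusted p = 0.0253), when 7.34% of all genes were called higher. The values of *Cd9* moved with a contrast between short and long genes, chosen after seeing the data. The contrast is the median deviation in log2 CPM of 877 genes with under 2.5 kb of exons minus that of 3759 genes with over 7.5 kb. It ran from -0.49 to 0.12 in Control APP/PS1 (median 0.04) and stood at -0.28 in 0004, 0.28 in 0018, 0.66 in 0020, 1.34 in 0021 and 0.92 in 0023. With it as a covariate the log2 difference of *Cd9* was 0.0034. In APP/PS1 mice every Slc11a2KD sample but 0004 lay above the Control range of the contrast. The parts of the contrast and of the knockdown therefore cannot be told apart, and the cause was not tested.

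Over the 11 APP/PS1 samples with group means removed, the contrast had a Pearson r of 0.85 with *Cd9* (2126 bp of exons) and of -0.81 with *Axl* (9180 bp), given as a description. For *Clec7a* r was -0.68 and for *Itgax* -0.59. For *Spp1* it was 0.14 and for *Gpnmb* 0.09. The sign of r did not follow exon length in every gene. It was 0.32 for *Igf1* (10234 bp) and -0.46 for *Lpl* (12225 bp). For *Cst7* and *Ch25h* (1387 bp each) it was -0.34 and 0.28. In the 11 WT samples r was 0.90 for *Cd9*, 0.32 for *Axl*, 0.37 for *Clec7a* and 0.03 for *Itgax*. With the contrast as a covariate the log2 difference between Slc11a2KD and Control APP/PS1 was -0.53 for *Itgax*, -0.35 for *Clec7a* and -0.46 for *Axl* (-0.84, -0.29 and -0.49 without it), and these genes passed the edgeR test in neither fit.

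**Figure D3:**
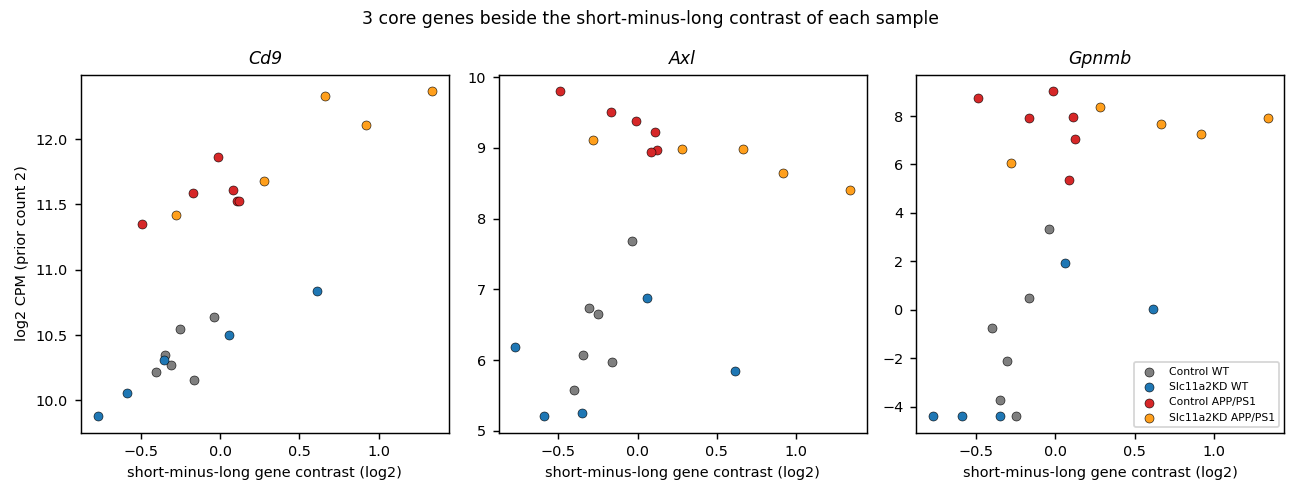
Level of *Cd9*, *Axl* and *Gpnmb* (log2 CPM) against the short-minus-long contrast of each sample (log2), by group. Among APP/PS1 samples *Cd9* rises and *Axl* falls along the contrast. Of the APP/PS1 samples, the 4 Slc11a2KD samples of libraries 18 to 23 lie farthest right, from 0.28 to 1.34, and Slc11a2KD WT 0022 lies at 0.61.

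*Spp1*, *Igf1*, *Ch25h* and *Gpnmb* did not pass the test between Slc11a2KD and Control APP/PS1 mice, and their intervals differ in width. *Igf1* was at 225 ± 70.8 and 235 ± 83.3 CPM in Slc11a2KD and Control APP/PS1, a log2 difference of -0.07 (95% interval -0.64 to 0.50). *Spp1* was at 379.8 ± 208 and 351 ± 279 CPM, with 0.11 (-1.66 to 1.89). *Gpnmb* was at 199.6 ± 100.4 and 269 ± 180 CPM, with -0.43 (-2.40 to 1.54), an interval that spans differences of several fold in either direction. *Ch25h* (0.08), *Cst7* (-0.41), *Clec7a* (-0.29) and *Lpl* (-0.54) had intervals that include 0. The differences of *Spp1* and *Ch25h* changed sign with libraries 18 to 23 as a covariate (-1.88 and -1.13). They also did so with the short-minus-long contrast as a covariate (-1.07 and -0.39).

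The interaction, which tests whether the APP/PS1 difference itself differs between knockdown and Control mice, was called for 0 of the 10 genes by edgeR, where 0% of all genes were. At an unadjusted p under 0.05 it had 0 of the 10 genes by edgeR, where 1703 of all genes (9.08%) had one, and 1 of the 10 each by DESeq2 (1472 of all genes) and limma voom (3376 of all genes). DESeq2 called 18 of all genes higher and 7 lower and limma voom 0 higher and 1 lower, and both called 0 of the 10. Its values ran from -0.31 (SE 0.39) for *Igf1* to 1.65 (SE 1.22, edgeR adjusted p = 0.594) for *Spp1*. Of the 10 values 9 were above 0, and their sign rested on Control WT 0014. Without it 8 of these 9 were below 0, with *Gpnmb* going from 0.68 to -1.68, *Cst7* from 0.42 to -0.78, *Spp1* to -0.32, *Lpl* from 0.49 to -0.44, *Clec7a* from 0.07 to -0.43, *Ch25h* from 0.28 to -0.40, *Itgax* from 0.29 to -0.26 and *Axl* from 0.12 to -0.24, while *Cd9* was at 0.40, and 0 of the 10 passed the edgeR test (lowest adjusted p = 0.619). The rise of *Spp1* that passed the test in the knockdown mice and not in the Control mice is therefore not shown to differ between them.

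Ordered by their mean CPM, 6 of the 10 genes (*Itgax*, *Cst7*, *Clec7a*, *Lpl*, *Gpnmb* and *Axl*) had the same order, Control APP/PS1, Slc11a2KD APP/PS1, Control WT and Slc11a2KD WT. *Igf1* had Slc11a2KD WT above Control WT (12.3 ± 3.24 against 10.4 ± 4.06 CPM). *Spp1*, *Cd9* and *Ch25h* had Slc11a2KD APP/PS1 first. Without 0014 the Control WT mean was above that of Slc11a2KD WT in 3 genes, *Itgax*, *Lpl* and *Axl*, and below it in the other 7. Between neighbours of the same genotype 0 of the 10 genes passed the edgeR test, although the WT groups did not overlap in *Itgax*, and the step from the lower APP/PS1 group to the higher WT group passed the test for all but *Spp1*.

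Per length of exons, the 10 genes sat at very different depths of the transcriptome. Levels are mean CPM per kb and ranks are over 18615 genes with a length. In Control WT, *Cd9* ranked 65 at 624.8 CPM per kb, and *Spp1* 1060, *Clec7a* 1606, *Axl* 2698, *Cst7* 2858, *Itgax* 3581, *Ch25h* 4854, *Lpl* 7275, *Igf1* 9151 and *Gpnmb* 11919, the last at 0.308 CPM per kb. Several of these values rested on 0014, in a comparison chosen after seeing the data. Without it the Control WT level per kb was lower by over 1.5 times in 5 genes, with *Gpnmb* at 0.0642 CPM per kb (rank 15200), *Spp1* at 7.85 instead of 30.9 (rank 3397), *Cst7* at 4.35 (rank 5020), *Lpl* at 1.09 instead of 2.06 (rank 8985) and *Ch25h* at 2.88 instead of 4.63 (rank 6306). *Itgax* then ranked 4601, *Clec7a* 2182, *Axl* 3251, *Igf1* 9564 and *Cd9* 65. In Control APP/PS1 every one of the 10 genes was among the 1548 highest per length, with *Cd9* at 25, *Cst7* at 146, *Clec7a* at 198, *Spp1* at 318, *Axl* at 499, *Ch25h* at 504, *Itgax* at 574, *Gpnmb* at 874, *Igf1* at 1483 and *Lpl* at 1548. These positions depend on the division by exon length. By mean CPM without it, over all 18759 genes tested, *Lpl* ranked 575, *Igf1* 671 and *Ch25h* 1773 in that group.

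*Gpnmb* climbed farthest, from a rank in the lower part of the genes detected to 40.6 CPM per kb. *Cst7* became the second most abundant of the 10 genes per length, at 312 CPM per kb against 9.98 in Control WT (4.35 without 0014). In Slc11a2KD APP/PS1 the ranks were 22 for *Cd9*, 208 for *Cst7*, 253 for *Clec7a*, 325 for *Spp1*, 549 for *Ch25h*, 812 for *Axl*, 1125 for *Itgax*, 1313 for *Gpnmb*, 1701 for *Igf1* and 2275 for *Lpl*. In Slc11a2KD WT they ran from 66 for *Cd9* and 2029 for *Clec7a* to 13569 for *Gpnmb*. Without Slc11a2KD WT 0019 the level of *Gpnmb* in that group was 0.0368 instead of 0.145 CPM per kb (rank 16049) and that of *Ch25h* 2.62 instead of 4.06 (rank 6585), while the other 8 genes moved by less than 1.5 times. The ranks carry the same spread as the levels, so the positions of *Axl* and *Ch25h* in Control APP/PS1 (70.6 ± 16.6 and 69.8 ± 32.8 CPM per kb) were not distinguishable.

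**Figure D4:**
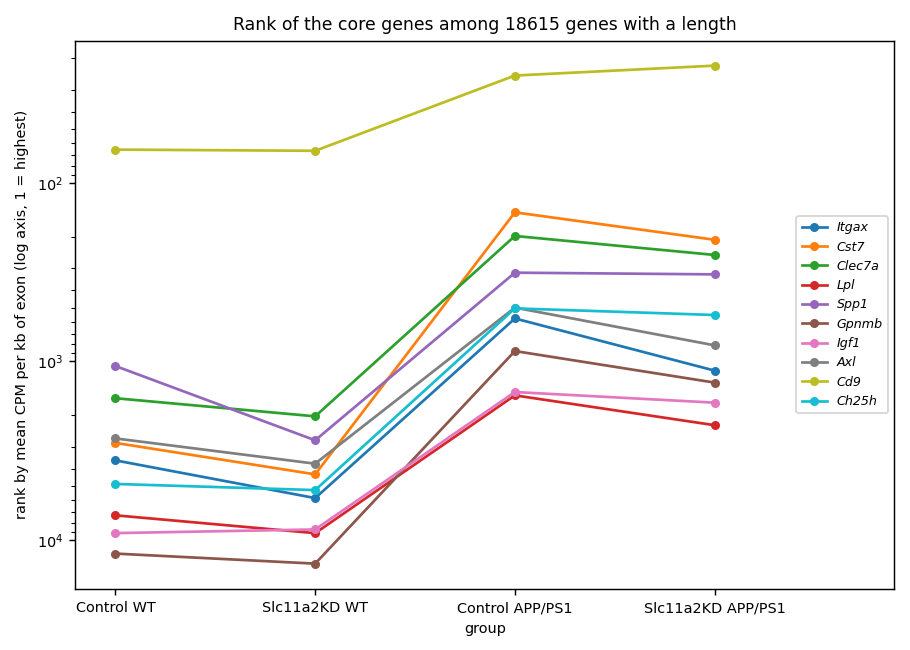
Rank of each of the 10 genes among 18615 genes by mean CPM per kb of exons in the 4 groups (log axis, rank 1 at the top). *Cd9* stays between rank 22 and 66, while *Gpnmb* moves from 11919 in Control WT to 874 in Control APP/PS1.

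The spread between samples of a group also separated the 10 genes. The biological coefficient of variation fitted by edgeR was 1.42 for *Gpnmb*, 0.92 for *Spp1*, 0.60 for *Ch25h*, 0.56 for *Lpl*, 0.55 for *Cst7*, 0.47 for *Itgax*, 0.36 for *Axl*, 0.35 for *Clec7a*, 0.32 for *Igf1* and 0.21 for *Cd9*, against a fitted trend of 0.23 at the level of *Cd9*. Only *Cd9* was below the trend. These are single values over all 22 samples, Control WT 0014 among them, and were not computed without it. Without 0014 the SE of the log2 fold change between Control APP/PS1 and Control WT was 0.31 for *Cst7* and 0.38 for *Itgax*. With 0014 these were 0.54 and 0.42, so the order of spread rests in part on that sample. Among Control APP/PS1 samples *Spp1* varied 15.3-fold from lowest to highest and *Gpnmb* 12.9-fold (3.92-fold and 3.97-fold without 0017, the lowest sample in both), while *Axl* varied 1.82-fold and *Cd9* 1.43-fold. Sample 0017 was the lowest of Control APP/PS1 in 6 of the 10 genes, and 0005 and 0013 were the highest in 4 each. In Slc11a2KD APP/PS1, 0004 was lowest in 5 genes (*Spp1*, *Gpnmb*, *Igf1*, *Cd9* and *Ch25h*) and highest in *Cst7* and *Axl*.

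Control WT 0014 was the highest Control WT sample in all 10 genes and the highest of all 11 WT samples in 8, all but *Igf1* and *Cd9*. Against the mean of the other 5 Control WT samples it was higher by 23.8-fold in *Gpnmb*, 18.6-fold in *Spp1*, 8.75-fold in *Cst7*, 6.39-fold in *Lpl*, 4.63-fold in *Ch25h*, 3.81-fold in *Itgax*, 3.49-fold in *Clec7a*, 2.68-fold in *Axl*, 2.01-fold in *Igf1* and 1.25-fold in *Cd9*. Only in *Spp1* did it reach the Control APP/PS1 mean. As a share of the gap between the other 5 and the Control APP/PS1 mean, it stood at 119% for *Spp1*, 28.1% for *Lpl*, 24.3% for *Itgax*, 22.6% for *Axl*, 10.96% for *Cst7*, 3.96% for *Igf1* and 3.61% for *Gpnmb*. Its *Prnp* of 7.12 CPM lay within the WT range.

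The summed level of 36 further DAM genes in 0014 was 25280 CPM, the highest of Control WT (the next was 21200) and below all APP/PS1 samples (32670 to 43040). Its summed level of 19 homeostatic genes, 75650 CPM, was the lowest of Control WT. The summed level of 12 monocyte and neutrophil genes was 369.5 CPM in 0014 and at most 254 CPM in the other Control WT samples, and its part in the levels of the 10 genes was not tested. Without 0014 all 10 genes passed the test between Control APP/PS1 and Control WT, where 5.83% of 18695 genes rose, and the log2 fold change of *Spp1* was 3.97 (SE 0.75, edgeR adjusted p = 0.000903). The log2 fold changes of the other 9 genes were higher as well, among them *Itgax* at 3.65, *Cst7* at 6.16, *Lpl* at 4.33 and *Gpnmb* at 9.37.

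**Figure D5:**
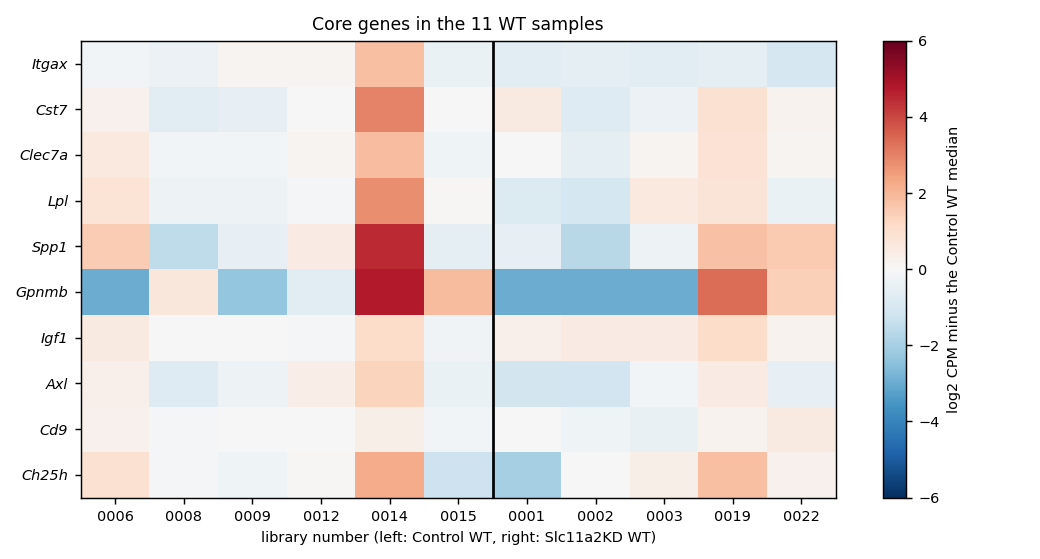
Level of the 10 genes in each of the 11 WT samples as log2 CPM minus the Control WT median (color, blue below and red above). The column of Control WT 0014 is high in all 10 genes, and Slc11a2KD WT 0019 is the highest of its group in 9.

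Slc11a2KD WT 0019 was the highest of its group in 9 of the 10 genes, with 0022 highest in *Cd9*. It held 13.6 CPM of *Ch25h*, 12.6 CPM of *Cst7* and 117 CPM of *Axl*. Monocyte and neutrophil genes summed to 562.7 CPM in 0019 and to at most 152.5 CPM in the other Slc11a2KD WT samples, and 16 choroid plexus genes to 833.8 CPM, also the highest of the group. The part of either in the levels of the 10 genes was not tested.

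Within genotypes, some of the genes varied together from sample to sample. Over the 11 APP/PS1 samples with group means removed, 5 of 45 pairs passed the permutation test of Pearson's r after adjustment over the 45 pairs, and 37 had an r above 0 (median 0.45). The closest pair was *Spp1* and *Gpnmb*, the pair with the widest spread, with r = 0.96 (permutation p = 0.00037, adjusted p = 0.0166) and Spearman's rho = 0.88 (adjusted p = 0.0388). Without the 2 samples farthest from the median of *Spp1*, r was 0.86, and it was 0.96 with the length contrast removed and 0.96 in the 6 Control APP/PS1 samples alone.

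The other 4 pairs joined *Clec7a*, *Axl*, *Lpl* and *Itgax*. They were *Clec7a* and *Axl* (r = 0.89, rho = 0.87), *Itgax* and *Axl* (r = 0.85, rho = 0.75), *Lpl* and *Axl* (r = 0.83, rho = 0.85) and *Clec7a* and *Lpl* (r = 0.85, rho = 0.82), each with a permutation p-value adjusted to 0.0273 for r. The rank correlation did not pass for *Itgax* and *Axl* (permutation, adjusted p = 0.0957) or for *Clec7a* and *Lpl* (permutation, adjusted p = 0.0677). Without the 2 farthest samples the 4 values of r were 0.82, 0.74, 0.72 and 0.64, and with the contrast removed 0.78, 0.80, 0.88 and 0.83. *Cd9* went against *Axl* (r = -0.50, permutation, adjusted p = 0.266), and with the contrast removed that value was 0.60.

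In the 11 WT samples all 45 pairs had an r above 0, with a median of 0.75, and 20 passed the permutation test. The median was 0.44 without 0014, so much of this relation rests on that sample. Pairs of other genes were not counted here either. The closest WT pairs were *Clec7a* with *Spp1* (r = 0.94, permutation, adjusted p = 0.00664) and *Clec7a* with *Lpl* (r = 0.94), which stood at 0.87 and 0.82 without 0014.

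Other genes followed single members across the 11 APP/PS1 samples, by Pearson's r of log2 CPM with group means removed, among 9305 genes. The 3 nearest to *Spp1* were *Gpnmb* (0.96), *Atp6v0d2* (0.95), a subunit of the proton pump of lysosomes, and *Pianp* (0.94). Nearest to *Gpnmb* were *Pianp* (0.96), *Spp1* and *Cd28* (0.96). *Igf1* was followed by *Cpeb1* (0.96), *Yipf7* (0.95) and *Fgf13* (0.95), *Lpl* by *Nceh1* (0.93), a cholesterol ester hydrolase, *Efr3b* (0.91) and *Afdn* (0.89), and *Cst7* by *Fam20c* (0.88), *Bhlhe40* (0.87) and *Tmem106a* (0.87). *Ch25h* was followed by *Fxyd5* (0.89), *Slc2a6* (0.84) and *Hcar2* (0.84).

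For the 4 genes that moved most with the length contrast, the nearest genes moved with it too. They were *Cyb561d2*, *Pafah1b3* and *Impdh2* for *Cd9* (r of 0.96 each), whose own r with the contrast was 0.87, 0.92 and 0.89, and *Fuca1*, *Npepps* and *Med1* for *Axl* (0.97 each), at -0.80, -0.79 and -0.85. *Itgax* had *Septin11*, *Dcaf17* and *Sh3pxd2b*, and *Clec7a* had *Esyt1*, *Cndp2* and *Tmx4*, all with an r with the contrast below -0.60. This was not particular to them. *Nceh1*, *Efr3b* and *Afdn*, nearest to *Lpl*, stood at -0.67, -0.59 and -0.69, and *Hcar2*, near *Ch25h*, at 0.65.

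The wider DAM list of 36 genes was also tested. Between Control APP/PS1 and Control WT, 27 rose, 1 fell and 8 did not pass, where 5.99% of all genes rose and 4.48% fell, with a median log2 fold change of 1.15 (3.46 for the 10 core genes). The smallest p-values were those of *Ank*, a pyrophosphate exporter (3.20, SE 0.20, edgeR adjusted p = 3.15e-10), *Hif1a*, the hypoxia factor (2.04, SE 0.13, adjusted p = 4.66e-10), and *Gusb*, a lysosomal glucuronidase (1.46, SE 0.11, adjusted p = 4.1e-09). The one that fell was *Cd74*, the invariant chain of antigen presentation, named here after its value was seen. In the knockdown mice 26 rose and 0 fell, where 9.77% of all genes rose. At an unadjusted p under 0.05 there were 29 of the 36, each of them higher, against 31.7% of all genes in either direction. Of the 19 homeostatic genes tested, 13 fell and 0 rose in Control mice (4.48% of all genes fell) and 14 fell in knockdown mice (6.41% of all genes), led by *Tmem119* (-1.08, SE 0.10, adjusted p = 7.02e-08), *Cst3* and *P2ry12* (-0.98, SE 0.11, adjusted p = 8.7e-07). By edgeR, 0 genes of either list passed between Slc11a2KD and Control in APP/PS1 mice, though DESeq2, which called 131 of all 18759 genes lower, called 5 of the 36 DAM genes lower (*Apoe*, *Hif1a*, *Ctsb*, *Ctsa* and *Cybb*), and limma voom called 0 of the 36. At an unadjusted p under 0.05 edgeR had 10 of the 36 (8 of them lower) and 5 of the 19, where 20.6% of all genes had one.

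Partners of the core genes were tested in the same fit. Of 80 partners, each counted once, 11 rose and 10 fell in Control mice by edgeR (26.2%, where 10.5% of all genes were called in either direction), and 13 rose and 15 fell in knockdown mice (35.0%, against 16.2% of all genes). The values that follow are those of Control mice. Of 7 genes of the *Axl* group, 0 passed in Control mice by edgeR (0 at an unadjusted p under 0.05, 0 by DESeq2 and 1, lower, by limma voom), with its ligand *Gas6* at 0.12 (edgeR adjusted p = 0.731) and its relative *Mertk* at -0.32 (adjusted p = 0.483). Of 6 genes of the CD11c integrin group 0 passed by edgeR (2 at an unadjusted p under 0.05, both lower, and 2 lower by DESeq2 and by limma voom), with its beta chain *Itgb2* at 0.28 (adjusted p = 0.271). In the dectin-1 pathway 1 of 7 passed, *Prkcd*, a kinase of the pathway, which fell by 0.52 on the log2 scale (adjusted p = 0.006), and *Syk* was at -0.40 (adjusted p = 0.376).

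Among the proteases that *Cst7* and its relatives act on, *Ctsl* (0.81, edgeR adjusted p = 0.000145) and *Ctsh* (0.43, adjusted p = 0.00436) rose, while *Ctss* (-0.57, adjusted p = 0.0435) and *Lgmn* (-0.36, adjusted p = 0.00858) fell, as did the inhibitor *Cst3*. Of 8 genes around *Lpl*, *Lipa*, the acid lipase of lysosomes, rose (0.72, adjusted p = 3.33e-06) and *Cd36*, a fatty acid receptor, fell (-1.54, adjusted p = 2.44e-05). Of 10 sterol genes listed for *Ch25h*, *Srebf2* (1.13, adjusted p = 8.93e-05) and *Insig1* (1.12, adjusted p = 0.00108) rose and the other 8 did not pass.

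Of 10 receptors and partners of osteopontin, *Itgb3* (0.94, edgeR adjusted p = 4.54e-05) and *Cd44* (1.29, adjusted p = 0.0297) rose and *Itga9* fell (-0.86, adjusted p = 0.0394). Of 7 genes listed with *Gpnmb* 2 rose, *Cd44* among them, and 1 fell. The one that fell was *Tfeb*, a factor of lysosomal genes, by 0.34 on the log2 scale (edgeR adjusted p = 0.0417). Of 12 genes of IGF signalling 1 rose, *Igfbp5* (3.03, adjusted p = 0.0249), and 2 fell, *Igfbp4* (-0.91, adjusted p = 0.00118) and *Igfbp2* (-5.24, adjusted p = 0.0244). *Igfbp2* was at 74.2 CPM in Control WT 0012 and 41.9 CPM in 0015, the samples with the highest sums of 16 choroid plexus genes (2050 and 1054 CPM), and at 0.245 to 3.57 CPM in the other 4 Control WT samples, where those genes summed to 2.18 to 5.88 CPM. The part of choroid plexus RNA in the difference of *Igfbp2* was not tested. Of 9 tetraspanins and partners of *Cd9*, *Cd63*, a tetraspanin of late endosomes, rose by 1.97 (adjusted p = 1.58e-07) and *Ptgfrn* by 1.10 (adjusted p = 0.00123), and *Cd82* fell by 0.32 (adjusted p = 0.0383).

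Lists of other cell types that a CD11b gate or a hippocampal digest could hold were tested in the same fit. In Control mice, where 4.48% of all genes were lower, 7 of 9 border macrophage genes, 6 of 12 monocyte and neutrophil genes, 3 of 10 dendritic cell genes and 12 of 16 choroid plexus genes were lower in Control APP/PS1 and 0 were higher. Choroid plexus genes summed to 2.18 to 2050 CPM in Control WT and 1.33 to 5.60 CPM in Control APP/PS1, and 0 of the 16 passed in the knockdown mice by edgeR, DESeq2 or limma voom (0 at an unadjusted p under 0.05 by edgeR). By limma voom 1 of the 16 was lower in Control APP/PS1. Oligodendrocyte genes were lower in 5 of 10, neuronal genes in 3 of 10, lymphocyte genes in 2 of 10 and endothelial and pericyte genes in 6 of 10 (1 was higher), and 1 of 9 astrocyte genes was higher. In the knockdown mice, where 6.41% of all genes were lower, the genes lower in Slc11a2KD APP/PS1 by edgeR were 4 of 9 for border macrophages, 1 of 12 for monocytes and neutrophils, 4 of 10 for dendritic cells, 3 of 10 for oligodendrocytes, 1 of 10 for neurons, 1 of 10 for lymphocytes and 5 of 10 for endothelium and pericytes, with 0 higher in these lists and 1 of 9 astrocyte genes higher. Of 15 genes of the response to dissociation 0 passed in Control mice by edgeR, DESeq2 or limma voom (1 at an unadjusted p under 0.05 by edgeR) and in knockdown mice 1 was higher by edgeR and by DESeq2 and 1 was lower by limma voom. Between Slc11a2KD and Control APP/PS1, 0 of 16 choroid plexus and 0 of 9 border macrophage genes passed by edgeR, where 0% of all genes did. The median log2 difference of the lists ran from -0.50 (dissociation) to 7.09 (choroid plexus), with border macrophages at 0.74. Choroid plexus genes summed to 2.42 to 506 CPM in Slc11a2KD APP/PS1. The part of these cell types in the rise of the core genes, or in their differences between Slc11a2KD and Control, was not tested.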

How the data were processed

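The authors trimmed reads with Trim Galore 0.6.7, aligned them to the mouse genome (mm39, GENCODE annotation) with STAR and counted reads per gene with its gene count mode. The deposited counts are whole numbers of reads per gene, not normalized. The second deposited table holds a signal, the counts of each sample divided by a DESeq2 size factor (the authors used DESeq2 1.36.0), and was used only as an alternative for levels. Whether counting used strand is not given in the sources used here.

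The members and gene lists were chosen with earlier results of these data known. A gene was tested if 3 or more of the 22 samples had 5 or more counts (18759 genes). The test was the quasi-likelihood test of edgeR 4.0.16 in R 4.3.3, with TMM scaling and the 4 groups in a single fit, at a Benjamini-Hochberg adjusted p of 0.05. Standard errors are the log2 fold change over the square root of F. Single genes were also compared by exact permutation tests of log2 CPM (prior count 2), and correlations by 100000 permutations. The labels name separate samples, and p-values measure the spread between them. Positions and exon lengths came from GENCODE M39 on GRCm39. The genes named besides the members were the 3 of each list with the smallest p in Control APP/PS1 against Control WT, partners of a member, and the 3 genes nearest to each member. Promoter windows are on GRCm38.p6, and no coordinates were converted. Alternatives were DESeq2 1.42.0, limma voom with sample quality weights (3.58.1), other scaling and filters, left-out libraries, 0010 kept and covariates. The steps were tested on simulated data. Some genes of the lists are not reported here by name.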

Additional observations from a re-analysis of the deposited data

Results flagged for a closer look

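Control WT 0014 lay far above the other 5 samples of its group in 8 of the 10 genes by Dixon's test, at 92.9 CPM for *Itgax* (the next was 29.5), 52.8 for *Cst7* (7.96), 127 for *Clec7a* (52.1), 84.8 for *Lpl* (21.7), 415 for *Spp1* (52.9), 10.1 for *Gpnmb* (1.359), 206 for *Axl* (107) and 18.5 for *Ch25h* (7.31). Slc11a2KD WT 0019 did so for *Gpnmb*, at 3.83 CPM (0.9748), and *Igf1*, at 17.9 CPM (11.8). These are 10 of 40 groups tested, where chance alone gives about 1 in 20, or 2, if the values of a group are normally distributed. The test was run on CPM, where a high sample stands farther out than on the log2 scale used elsewhere. It was not run on log2 CPM. The count of 10 against 2 therefore holds for the CPM scale only and is given as a description. The 10 genes of a sample are not independent, and the cause was not tested.

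Control APP/PS1 0010, which entered no comparison, was above the highest WT sample in 9 of the 10 genes, all but *Spp1* (181 CPM). It held 105 CPM of *Itgax*, 288 of *Cst7*, 445 of *Clec7a*, 103.0 of *Lpl*, 117 of *Gpnmb*, 196 of *Igf1*, 353 of *Axl*, 5559 of *Cd9* and 178 of *Ch25h*. *Cd9* and *Ch25h* were above, and *Itgax*, *Clec7a*, *Lpl* and *Axl* below, the range of the other 6 Control APP/PS1 samples.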

How the results depend on the processing

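Both comparisons of APP/PS1 with WT kept their direction for all 10 genes under every alternative run, and the calls changed for *Spp1* alone. In Control mice *Spp1* passed the test with limma voom and sample quality weights (3.16, adjusted p = 0.00368) and without 0014 (3.97), and not under the others. Wherever limma voom is named, these weights were used, so the tool and the weighting of samples changed together. In knockdown mice it did not pass with libraries 1 to 4 left out (2.90) or with the short-minus-long contrast as a covariate (2.75). The filter of 10 counts in every sample removed *Gpnmb*. Of the log2 fold changes recomputed under the alternatives 1624 kept direction and call and 55 changed sign, all of them uncalled differences between Slc11a2KD and Control or uncalled interactions (8 of the 10 genes). Signs changed in APP/PS1 mice for *Igf1* with limma voom (0.0054) and with libraries 1 to 4 left out (0.086), for *Ch25h* with 0010 kept (-0.084), for *Spp1* (-1.88), *Cd9* (-0.10) and *Ch25h* (-1.13) with libraries 18 to 23 as a covariate, and for *Spp1* (-1.07) and *Ch25h* (-0.39) with the short-minus-long contrast as a covariate. In WT mice they changed for *Igf1* with libraries 18 to 23 as a covariate (-0.019) and for *Gpnmb* (0.21), *Cd9* (0.31) and *Ch25h* (0.51) with libraries 1 to 4 left out. That setting also brought 1 of the 10 genes, *Cd9*, past the test in APP/PS1 mice. Leaving out 1 sample at a time gave 0 to 1 called genes there. It moved *Igf1* there from -0.21 to 0.11, *Ch25h* from -0.14 to 0.27 and *Spp1* from -0.12 to 0.43. In WT mice it moved *Ch25h* from -0.84 to 0.49, *Cd9* from -0.18 to 0.082, *Cst7* from -1.08 to 0.38, *Clec7a* from -0.61 to 0.14, *Spp1* from -1.995 to 0.44 and *Gpnmb* from -3.07 to 1.25, and the interaction of *Spp1* from -0.32 to 2.11, of *Gpnmb* from -1.68 to 2.63, *Cst7* from -0.78 to 0.67, *Lpl* from -0.44 to 0.76, *Clec7a* from -0.43 to 0.31, *Ch25h* from -0.40 to 0.92, *Itgax* from -0.26 to 0.52 and *Axl* from -0.24 to 0.45, each lowest without 0014. The interaction also changed sign for *Cst7* with limma voom (-0.17), for *Clec7a* (-0.017) and *Ch25h* (-0.17) with libraries 18 to 23 as a covariate, for *Gpnmb* (-0.10) and *Ch25h* (-0.17) with the contrast, and for *Cst7* (-0.030), *Clec7a* (-0.34), *Gpnmb* (-0.43), *Axl* (-0.42) and *Ch25h* (-0.27) with libraries 1 to 4 left out. The causes were not tested beyond the construction of each alternative. Of the correlations 114 values stayed within 0.2 of the reported ones and 69 moved farther. Of the ranks 43 stayed within the SD of the ranks of single samples in the group, and 27 moved farther. No paired analysis was possible because the groups share no replicate numbers. Depth limits *Gpnmb* and *Ch25h* in WT samples, where counts run down to 0 and 40.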
